A study of Homo sapiens with 2 samples.

Results

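The genes described here are long non-coding RNA genes of 2 naming classes: intergenic ones, whose symbols start with LINC and a number, and antisense ones, whose symbols join the name of another gene to AS and a number. They were selected on their measured level, the mean of both arrays at or above 4.5 on the log2 scale, and each gene was represented by its probe set with the highest mean. Of 938 such genes with a named probe set, 184 passed, 73 LINC and 111 antisense genes, out of 14884 named genes in all. The cells were AsPC-1, an established pancreatic adenocarcinoma line, in a 3-dimensional culture beneath an overlay of collagen gel. In 1 culture they were compressed at 2.9 mmHg for 24 h, and in the other they stayed uncompressed for the same time. Total RNA of each culture was read on 1 GeneChip Human Gene 2.0 ST array, which gives a signal per probe set.

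Long non-coding RNAs are transcribed and usually spliced like messenger RNAs, but carry no long conserved open reading frame. Intergenic ones lie between protein-coding genes. Antisense ones come from the opposite strand of a gene, overlap it or start beside its promoter, and some are known to raise or lower the level of that gene. Most are present at low levels and many stay in the nucleus. All 184 genes were found in the RefSeq gene table with the biotype lncRNA, which fits the label of the set.

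With 1 array per condition there is no estimate of the spread between cultures, so no difference below has a test or a p-value, and precision is limited by there being 2 arrays. Values are log2 RMA signals, differences are compressed minus uncompressed, and a gene was counted as higher or lower where it differed by at least 1.5-fold (0.58 in log2 units). As a guide to measurement error within these 2 arrays, 222 named genes had exactly 2 different probe sets at the level floor, and a single probe set's difference varied with an SD of 0.193 between them. Over all 53617 probe sets the median was 3.72 on the compressed and 3.75 on the uncompressed array. Of 11 named epithelial markers, 9 were at or above the floor, and KRT7 and AGR2 were below it. KRT18 and KRT19 differed by 0.18 and 0.01, EPCAM by -0.34, TSPAN8 by -0.79 (7.52 in compressed and 8.31 in uncompressed cells) and VIL1 by -1.14 (6.74 and 7.88). In bulk RNA, fewer cells of a type and less RNA per cell cannot be told apart. Of the 3 endothelial and the 4 endocrine and acinar markers named, 0 reached the floor. CD68 (9.26 in compressed and 8.45 in uncompressed cells), LYZ and LUM, listed as leukocyte and fibroblast markers, were above the floor, while DCN, the other named fibroblast marker, read 1.82 and 1.79. The part of these markers in the results was not tested.

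At the level floor, 9 LINC genes and 2 antisense genes were at least 1.5-fold higher in compressed cells. Of the 184 genes, 11 (5.98%) were higher and 1 (0.543%) was lower. Among 8087 other named genes at the same floor, 4.01% were higher and 1.27% lower. This balance depends on the floor. With it set on the brighter array, 15 of 215 were higher (6.98%) and 7 lower, against 4.17% and 1.58% of other named genes. With no floor, 40 of 938 were higher (4.26%) and 40 lower, against 3.73% and 2.73%. The higher share with no floor was thus near that of other genes, whose lower share also rose. Of the 11 higher genes, 9 were at or above the floor on both arrays. LINC00659 and PCGF3-AS1 were not, and the single lower gene, H1-10-AS1, was not either. By class, 9 of 73 LINC genes (12.3%) and 2 of 111 antisense genes (1.8%) were higher. The counts were 10 LINC and 5 antisense genes with the floor on the brighter array, and 20 of each with no floor. They were 8 LINC and 1 antisense at a floor of 5.0, and 4 and 1 at 6.0. Over both classes, 9 of 100 genes (9%) were higher at 5.0, against 3.87% of other named genes. At 6.0, 5 of 30 (16.7%) were higher, against 3.59%. The counts of both classes were closer where dimmer genes were let in. The size of each class changes with the floor and was not counted at the other floors, so these counts are not shares. The contrast was not tested. Among the 116 other genes that RefSeq classes as lncRNA, 12.1% were higher and 0.862% lower. Among 147 transcribed pseudogenes 9.52% were higher, so a high share was not particular to LINC genes.

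The bulk of both classes was centred near 0. The median difference was 0.04 for all 184 genes, 0.05 for LINC genes and 0.04 for antisense genes, against 0.07 for the other lncRNA genes and 0.00 for the 8087 other genes. The quartiles ran from -0.17 to 0.24 over the 184 genes and from -0.16 to 0.18 over the other genes. In all, 98 of the 184 differences were positive, 83 were negative and 3 were exactly 0. The medians depend on the floor. With no floor they were -0.03 over all 938 genes, -0.04 over LINC and -0.02 over antisense genes, and the LINC median was 0.14 at a floor of 5.0 and 0.35 at 6.0.

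**Figure D1:**
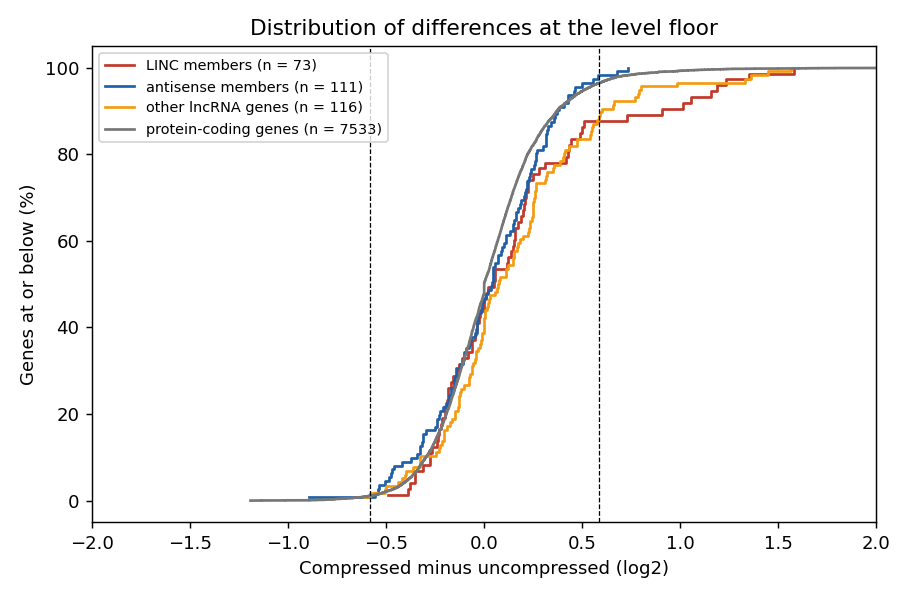
Cumulative share of genes (%) against the difference compressed minus uncompressed (log2) for LINC genes, antisense genes, other lncRNA genes and protein-coding genes at the floor of 4.5; dashed lines mark 1.5-fold. The LINC and other lncRNA curves separate from the protein-coding curve in the upper tail, where 12.3% and 12.1% of genes lie past 1.5-fold, while the antisense curve ends at 0.73.

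The share of higher genes grew with signal among the 184 genes. Between 4.5 and 5, 2 of 84 were higher (2.38%), against 4.68% of other genes in that range. Between 5 and 6, 4 of 70 were higher (5.71%), against 4.37%. At 6 and above, 5 of 30 were higher (16.7%), against 3.59%. Those 5 were LINC00999, LINC01061, LINC01000, LINC01347 and DLGAP1-AS1, so the larger differences were not gathered at the dim end. Whether a dim probe set is above background is unknown, because no detection calls were used here.

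**Figure D2:**
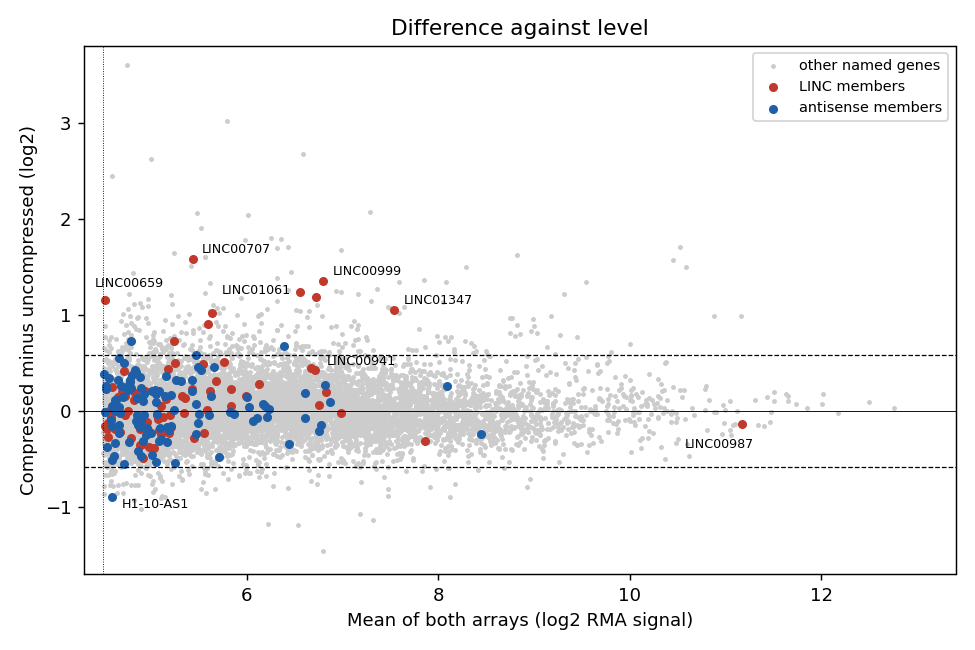
Difference compressed minus uncompressed (log2) against the mean of both arrays (log2 RMA signal) for LINC genes (red), antisense genes (blue) and other named genes (grey); dashed lines mark 1.5-fold and the dotted line the floor of 4.5. The 5 members past 1.5-fold at a mean of 6 or more include LINC00999 and LINC01347, and H1-10-AS1 is the single member past it on the negative side.

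The largest difference was that of LINC00707, an intergenic RNA studied in several carcinomas, with 6.22 in compressed and 4.64 in uncompressed cells (difference 1.58, 2.99-fold). LINC00999 had 7.47 in compressed and 6.12 in uncompressed cells, which is 2.56-fold. LINC01061 had 7.17 in compressed and 5.94 in uncompressed cells, or 2.35-fold. These 3 were already above the floor without compression, so their folds do not rest on a reading below it. LINC01000 had 7.31 in compressed and 6.13 in uncompressed cells (2.28-fold), and LINC01347 had 8.06 and 7.01 in the same order (2.08-fold). LINC01002 had 6.14 in compressed and 5.13 in uncompressed cells (2.02-fold). LINC03009 had 6.04 in compressed and 5.13 in uncompressed cells (1.88-fold). These 7 LINC genes made up all but 2 of the higher LINC genes.

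The remaining higher genes were dimmer or smaller in size. LINC00659 read 5.09 in compressed and 3.93 in uncompressed cells, and PCGF3-AS1 5.15 and 4.42 in the same order. Both lay below the floor in uncompressed cells, so no fold is given for them. LINC00239 differed by 0.73 (1.66-fold), and DLGAP1-AS1 had 6.72 in compressed and 6.05 in uncompressed cells (1.60-fold). SH3PXD2A-AS1, with 5.75 in compressed and 5.17 in uncompressed cells, stopped just short of the rule. Past 2-fold there were 7 higher genes and 0 lower ones. LINC00659, below the floor in uncompressed cells, was among the 7. The share of other named genes past 2-fold was not computed, so this count is not a result about the set.

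**Figure D3:**
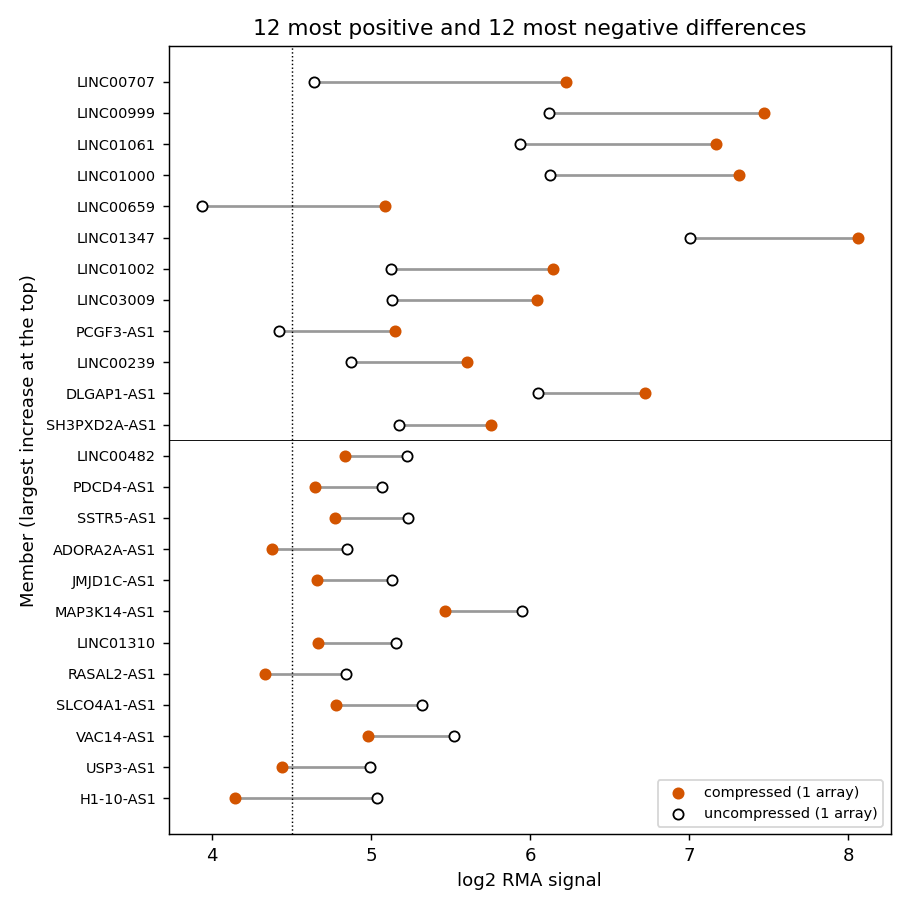
log2 RMA signal in compressed (filled) and uncompressed (open) cells, 1 array each, for the 12 members with the most positive and the 12 with the most negative differences; the dotted line is the floor of 4.5. LINC genes fill 9 of the upper 12 places and antisense genes 10 of the lower 12, and the upper differences reach 1.58 while the lower ones end at -0.89.

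Several of the higher LINC genes were read by more than 1 probe set. LINC00999 had 4 named probe sets, LINC01000 had 3, LINC01061 had 7 and LINC01347 had 6. All 3 probe sets of LINC01000 passed 1.5-fold, with differences from 0.67 to 1.19. Of the 7 of LINC01061, 6 passed, with a range from 0.00 to 1.57. Of the 6 of LINC01347, 4 passed, and the 2 dimmest did not, 1 of which differed by -0.38. Of the 4 of LINC00999, 2 passed, the brightest and 1 that was below the floor on both arrays (3.65 in compressed and 2.19 in uncompressed cells), 1 differed by 0.53 and 1 had the same value on both arrays. Averaged over all their probe sets, the 4 genes differed by 0.84, 1.00, 0.90 and 0.62 for LINC00999, LINC01000, LINC01061 and LINC01347. The direction was therefore shared by most probe sets, while the size depended on the probe set.

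**Figure D4:**
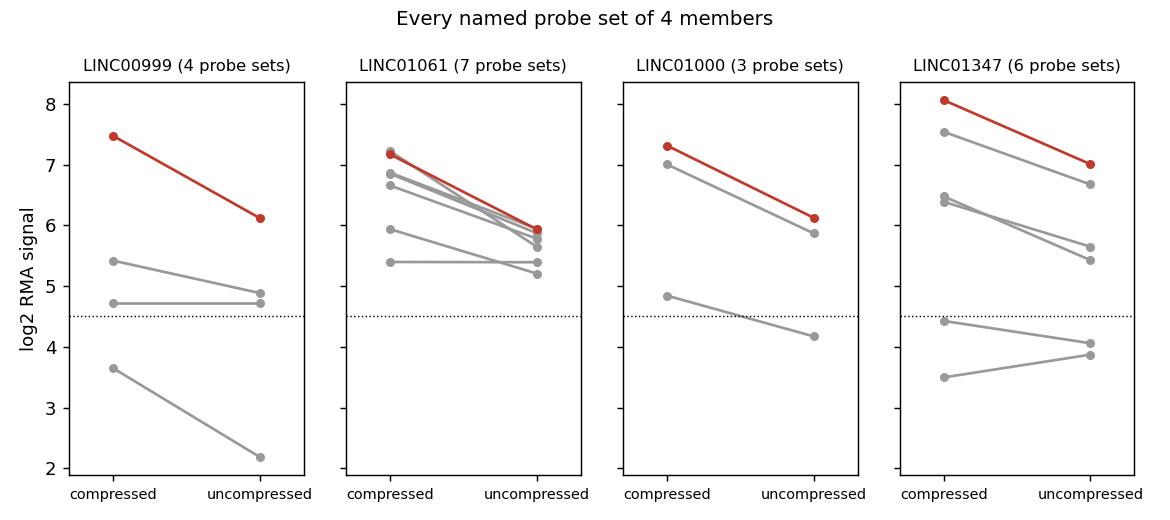
log2 RMA signal of each named probe set in compressed and uncompressed cells (1 array each) for 4 LINC genes; red marks the probe set with the highest mean, grey the others, and the dotted line the floor of 4.5. Most lines slope the same way, with a flat line in LINC00999 and in LINC01061 and 1 reversed dim probe set in LINC01347.

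The promoter table held 155 of the 184 genes and 6 of the 11 higher ones. Windows run from 250 bases before to 50 bases after the annotated start (RefSeq, GRCh38.p14). The promoters of LINC01061 and LINC01002 were near copies, with 270 of 275 aligned bases identical (98.2%). Each also resembled 5 further RefSeq entries, at 96.7% identity or more. They are printed 5′ to 3′ because both genes were higher, and capitals mark an AP-1 site motif (TGANTCA, searched on both strands). LINC01061 lies at chr4:119410611-119410910, minus strand, and LINC01002 at chr19:202160-202459, minus strand.
LINC01061: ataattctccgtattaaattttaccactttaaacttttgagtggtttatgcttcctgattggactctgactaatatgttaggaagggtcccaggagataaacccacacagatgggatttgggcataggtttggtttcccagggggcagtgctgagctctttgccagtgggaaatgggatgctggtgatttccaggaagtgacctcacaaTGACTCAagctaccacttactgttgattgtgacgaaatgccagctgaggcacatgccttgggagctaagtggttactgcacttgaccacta
LINC01002: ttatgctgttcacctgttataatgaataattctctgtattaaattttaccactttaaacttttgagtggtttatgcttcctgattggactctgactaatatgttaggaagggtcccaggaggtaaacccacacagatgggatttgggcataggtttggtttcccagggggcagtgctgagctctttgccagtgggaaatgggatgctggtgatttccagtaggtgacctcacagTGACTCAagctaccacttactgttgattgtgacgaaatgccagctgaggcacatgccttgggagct

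Both windows held 1 such match. It was present in 8.39% of the 155 member promoters and in 7.76% of all 27305 promoters of that length. Whether the probe sets of LINC01061 and LINC01002 also read transcripts of these copies was not tested, so the locus behind each signal is uncertain.

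LINC03009 is shown because its window held 3 matches to the core of the metal response element, the site bound by the zinc-sensing factor MTF1, and the study's title places free zinc in the response. The core was searched as TGCACNC or TGCGCNC on both strands, and capitals mark the matches. The window lies at chr7:76549091-76549390, plus strand.
LINC03009: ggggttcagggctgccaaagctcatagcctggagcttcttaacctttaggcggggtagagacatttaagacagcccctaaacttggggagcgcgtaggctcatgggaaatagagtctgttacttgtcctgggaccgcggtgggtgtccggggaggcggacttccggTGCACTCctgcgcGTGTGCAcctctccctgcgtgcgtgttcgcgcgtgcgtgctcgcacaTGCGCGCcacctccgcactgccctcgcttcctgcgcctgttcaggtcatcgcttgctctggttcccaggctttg

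The core is common: 29.7% of member promoters and 29.4% of all promoters held at least 1 match, and of the 6 higher genes with a promoter LINC03009 was the single one. The LINC03009 window also resembled the promoters of POM121 (96.6% of 293 aligned positions identical) and POM121C (91.1%), which encode nucleoporins. POM121 had 6.69 in compressed and 6.51 in uncompressed cells, and POM121C 5.12 and 4.85 in the same order. Neither passed 1.5-fold. A sterol response element (TCACNCCAC) was found in 0 of these 6 promoters and in 1.15% of all promoters. The antioxidant response element core (TGACNNNGC), which can overlap an AP-1 match, was found in 2 of the 6 (PCGF3-AS1 and DLGAP1-AS1), in 21.9% of member promoters and in 13.6% of all promoters. The median GC content was 63.3% in member promoters and 58.3% in all promoters. A match is a description of letters and does not show binding.

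Genes with several named probe sets or a look-alike promoter held 7 of the 11 higher genes. There were 36 such genes, of which 19.4% were higher, against 4 of the other 148 (2.70%). Within the LINC class, 6 of 24 such genes were higher (25%), against 3 of 49 (6.12%). This grouping was made after the values were seen and is given as a description. Look-alikes could be sought only for the 155 genes in the promoter table. The rest, LINC00707 and LINC00239 among them, counted as having none, so the groups are not cleanly split. Overlapping windows at the same locus were not excluded, and the entry that resembled PCGF3-AS1 was identical over all 299 aligned bases. Look-alikes did not always move together: LINC01106 and LINC01123 have promoters identical over all 289 aligned bases, and LINC01106 had 6.89 in compressed and 6.45 in uncompressed cells (difference 0.44), while LINC01123 had 6.97 and 6.99 (difference -0.02).

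Protein-coding neighbours were read for the 9 higher LINC genes. The nearest protein-coding gene with a named probe set, by RefSeq position, was SFMBT2 for LINC00707 (difference 0.13), ZNF37A for LINC00999 (-0.10), ARLN for LINC01061 (-0.47) and CALU for LINC01000 (0.21). It was NTSR1 for LINC00659 (0.19), CEP170 for LINC01347 (0.34), PLPP2 for LINC01002 (-0.06), POMZP3 for LINC03009 (-0.47) and WDR20 for LINC00239 (0.06). Of these 9 neighbours 0 passed 1.5-fold, and at the 4.01% of other genes that were higher, a count of 0 in 9 shows little. SFMBT2 (3.97 in compressed and 3.85 in uncompressed cells) did not reach the floor on either array, and ARLN (4.06 and 4.53) had a mean below it.

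On the negative side the differences were small and mostly of antisense genes. Of the 12 most negative, 10 were antisense and 2 LINC. H1-10-AS1, antisense to a linker histone gene, read 4.14 in compressed and 5.04 in uncompressed cells, the single difference past 1.5-fold (-0.89), and its compressed reading was below the floor. USP3-AS1 read 4.44 in compressed and 5.00 in uncompressed cells, and VAC14-AS1 4.98 and 5.52 in the same order. The others were SLCO4A1-AS1 (-0.54), RASAL2-AS1 (-0.51), LINC01310 (-0.49), MAP3K14-AS1 (-0.48), JMJD1C-AS1 (-0.47), ADORA2A-AS1 (-0.47), SSTR5-AS1 (-0.46), PDCD4-AS1 (-0.42) and LINC00482 (-0.39). PDCD4-AS1 has a second probe set, at 1.75 on both arrays, and over both its difference was -0.21. These differences lie within about 3 times the SD of 0.193 between probe sets of a gene, H1-10-AS1 excepted.

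A named sense gene was available for 68 of the 111 antisense genes. Where both starts were in the promoter table, 53 pairs, all 53 lay on opposite strands, as their names imply. The antisense RNA and its sense gene differed in the same direction in 29 pairs (42.6%) and in opposite directions in 37, and 2 pairs had a difference of exactly 0 on 1 side. In 0 pairs did both partners pass 1.5-fold, which shows little. PCGF3-AS1 was the single antisense RNA past 1.5-fold with a named sense gene. Of the 68 sense genes, which were not held to the floor, 2 were higher and 2 lower. Among other named genes with no floor, 3.73% were higher and 2.73% lower. In the 50 pairs with both partners at or above the floor, 2 sense genes were higher and 0 lower. The shares of other named genes at the floor were 4.01% and 1.27%, and these pairs are few to set against them. Across the 68 pairs Pearson's r was -0.10 and Spearman's rho -0.09, given as a description of 2 arrays that all pairs share. Starts lay within 1000 bases of each other in 17 pairs, of which 9 had the same direction. In the 36 pairs with starts farther apart, 13 did. With both partners at or above the floor, 22 of 50 pairs (44.0%) had the same direction.

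Single pairs took each of the 4 possible forms. ZEB1-AS1 starts beside the promoter of ZEB1, a transcription factor of epithelial-mesenchymal transition, and has been reported to raise it. ZEB1-AS1 had 5.34 in compressed and 4.97 in uncompressed cells (difference 0.36), and ZEB1 had 6.18 and 5.41 (0.77). PCGF3-AS1 and PCGF3, a Polycomb subunit gene, were both positive, PCGF3 with 6.67 in compressed and 6.37 in uncompressed cells. PCNA-AS1, antisense to the DNA replication clamp gene, had 8.32 in compressed and 8.56 in uncompressed cells, and PCNA had 10.1 and 10.5 (differences -0.24 and -0.37). DDC-AS1 and DDC, the aromatic amino acid decarboxylase gene, were both negative (-0.32 and -0.58).

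The widest split was that of STARD4, which encodes a cytosolic cholesterol transfer protein and is a known SREBP target. STARD4 had 7.28 in compressed and 6.29 in uncompressed cells (difference 0.99), whereas STARD4-AS1 read 4.46 in compressed and 4.79 in uncompressed cells (-0.33). JMJD1C, a histone demethylase family gene, differed by 0.48 and JMJD1C-AS1 by -0.47. In the reverse split, FOXD2-AS1 had 5.04 in compressed and 4.63 in uncompressed cells (0.41), while the forkhead gene FOXD2 read 3.66 and 4.29, below the floor on both arrays. EPB41L4A-AS1, which hosts a small nucleolar RNA, had 5.88 in compressed and 5.42 in uncompressed cells (0.46), and EPB41L4A was far below the floor (1.95 and 2.56). Of the 12 most negative members, 8 had a named sense gene. The sense gene was positive in 6 of these pairs. These were RASAL2 (0.17), USP3 (0.17), ADORA2A (0.04, with a mean below the floor), MAP3K14 (0.20), PDCD4 (0.29) and JMJD1C. MAP3K14 is the kinase of non-canonical NF-kB signalling and PDCD4 a translation inhibitor. The sense gene was negative in 2, VAC14 (-0.06) and SSTR5 (-0.22). RASAL2, USP3, ADORA2A and VAC14 differed by less than the SD of 0.193. Over all pairs with a negative antisense RNA, the sense gene was positive in 18 and negative in 14. No sense gene of these 8 passed 1.5-fold, which shows little. Both lower sense genes of the 68 pairs, FOXD2 and EPB41L4A, were below the floor on both arrays.

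**Figure D5:**
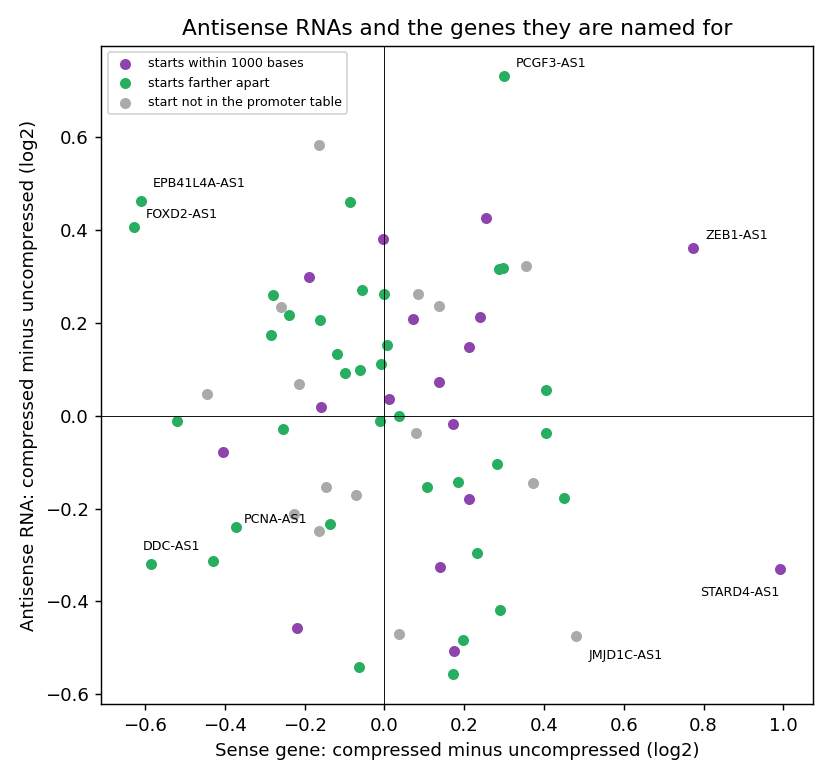
Difference of each antisense RNA against that of the gene it is named for (both compressed minus uncompressed, log2) in 68 pairs, coloured by the distance between annotated starts. The points fill all 4 quadrants, with ZEB1-AS1 high on both axes and STARD4-AS1 at a sense difference of 0.99 and an antisense difference of -0.33.

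Of 19 members listed as often studied in epithelial tumours, 0 were higher and 0 lower, which is near the 4.01% and 1.27% of other named genes for a list of this size. Differences were positive in 11 and negative in 8, with a median of 0.07. LINC00941, linked to invasion in pancreatic and colorectal cancer cells, had 6.92 in compressed and 6.49 in uncompressed cells (difference 0.43). GAS6-AS1 differed by 0.32 and its second probe set by 0.56. LINC00460 had 5.83 in compressed and 5.52 in uncompressed cells, AFAP1-AS1 8.22 and 7.95, and LINC00673, reported to act on the phosphatase PTPN11, 5.21 and 5.09. The most negative of the list were HIF1A-AS2 (-0.31), LINC00339 (-0.24), PCNA-AS1 (-0.24) and LINC00467 (-0.23). TMPO-AS1 differed by -0.08, beside TMPO, a nuclear lamina gene, at -0.40.

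The list of RNAs reported to encode small proteins had 3 members at the floor, none past 1.5-fold, too few to set against the 4.01% of other genes. HOXB-AS3, whose peptide is known from colon cancer cells, had 5.43 in compressed and 5.55 in uncompressed cells. LINC00467 had 5.43 in compressed and 5.66 in uncompressed cells, and LINC01116 had 5.86 and 5.81.

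Of the 10 members with the highest mean, 2 were past 1.5-fold, LINC01347 and LINC00999, and the other 8 differed by less. Among other named genes with a mean of 6 or more, 3.59% were higher and 0.891% lower, and 10 members are few to set against these shares. LINC00987, at 11.1 in compressed and 11.2 in uncompressed cells, differed by -0.14, and its second probe set, near 4, by -0.20. LINC00863 had 7.71 in compressed and 8.02 in uncompressed cells (-0.31). LINC01278 had 6.92 in compressed and 6.72 in uncompressed cells. PITPNA-AS1 had 6.91 and 6.82 in that order, and PRRT3-AS1 had 6.95 and 6.68. The order ranks probe set signals and not RNA amounts.

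A list of well-studied non-coding RNAs that are not LINC or antisense by name had 20 at the floor, TERC, RMRP and RPPH1 among them. It held 6 higher, 0 lower and 19 positive genes, with a median of 0.25. The list was chosen with earlier results of these data known, so its counts are a description and not evidence about such RNAs. Over the 116 other genes that RefSeq classes as lncRNA the higher share was 12.1%, and over all 8087 other named genes 4.01%. The class of 116 shares genes with the list but does not hold TERC. TERC was higher, with 8.70 in compressed and 8.08 in uncompressed cells. DANCR, the single negative gene of the list, differed by -0.14. MALAT1, an abundant nuclear speckle RNA, had 11.2 in compressed and 9.66 in uncompressed cells (2.96-fold), LINC-PINT 7.18 and 5.74 (2.73-fold), CYTOR 9.83 and 9.06 (1.70-fold) and GAS5, a small nucleolar RNA host, 8.26 and 7.68 (difference 0.59). LINC00999, at 2.56-fold, lay near LINC-PINT in size. No test of the difference between these groups is possible with 1 array each.

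Of the 25 genes with several probe sets, 11 had probe sets of opposite sign and 14 did not. Besides LINC01347, the mixed ones were DHRS4-AS1 (-0.14 and 0.02), HLA-F-AS1, LINC00173, LINC00847 (0.17 and -0.50), LINC00933 (0.28 and -0.33), LINC00957 (-0.28 and 0.42), LINC01023 (0.23 and -0.18), LINC01193, LINC01554 and PRR34-AS1. In these 10 genes no probe set passed 1.5-fold, and their direction is not settled. Among them, only HLA-F-AS1 and LINC01023 had opposite signs between probe sets with a mean at or above the floor. In the others the opposing probe set had a mean below it, such as 2.99 in LINC00847 and 3.15 in LINC00957. At the level floor, BOK-AS1 (mean 4.51, difference 0.38), LINC00659 (4.51, 1.16) and LINC02878 (4.51, -0.16) were just inside. Just outside were LINC01144, with a difference of 0.00, ADD3-AS1, with -0.84, and LINC00278, with -0.79.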

How the data were processed

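The deposited values are log2 signals per probe set that the authors made; per the submitters' processing notes, the tools were the Transcriptome Analysis Console and RMA. The RMA method corrects background, quantile-normalizes the arrays and summarises probes, so a change shared by all genes is removed and dim differences are compressed. Software versions, library files and the build are not stated by the labels. Groups came from the treatment label.

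The platform annotation paired 16098 probe sets with 1 gene each. Symbols were matched to RefSeq (GRCh38.p14) by gene identifier, for 184 of 184 members. Differences were computed and counted by size, with no test. The counting rule was checked on simulated data. The members, lists and rules were chosen with earlier results of these data known.

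Named were the 12 most positive and 12 most negative members, the 10 with the highest mean and up to 4 in each direction of 3 gene lists. Several of their sense genes, genes with probe sets of opposite sign and 3 genes on each side of the floor were also named. Other genes were chosen after their values were seen. Alternatives changed the floor, the summary of probe sets, the scaling and the size. Promoters were compared by shared words of 12 bases (at least 60) and aligned with Biopython 1.88. Python 3.11.15, NumPy 2.4.6, pandas 2.3.3, statsmodels 0.14.6 and matplotlib 3.10.9 were used.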

Additional observations from a re-analysis of the deposited data

How the results depend on the processing

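Centring changed nothing by construction, since the median of named genes was already 0. The number of higher genes was 12 under loess correction (span 0.3), and 11 with the mean of all probe sets and with identical pairs of values counted once. It was 9 at a floor of 5.0, 5 at 6.0 (4 LINC and 1 antisense), 15 with the floor on the brighter array, 10 after repeated quantile normalization, 7 at 2-fold and 32 at a size of 0.32 (log2). The number of lower genes, 1, became 0 at a floor of 5.0, at 6.0 and at 2-fold, 7 on the brighter array, 3 after repeated quantile normalization and 19 at the size of 0.32. With no floor 40 of 938 genes were higher (20 LINC and 20 antisense) and 40 lower, and the medians turned negative (-0.0284 over all, -0.0391 for LINC and -0.0178 for antisense genes). Of other named genes, 3.73% were higher and 2.73% lower with no floor, and 4.17% and 1.58% with the floor on the brighter array. These shares were 3.87% and 1.08% at a floor of 5.0, and 3.59% and 0.891% at 6.0. After repeated quantile normalization they were 3.33% and 1.53%, against 10 and 3 of 186 members. Under loess correction 3.91% of other named genes were higher, against 12 of 184 members. The shares of other named genes past 2-fold and past 0.32 were not computed, so those counts are not a result about the set. Fewer or more genes entered under each floor by construction. Antisense genes past 1.5-fold numbered 1 at a floor of 5.0 and 5 on the brighter array.

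The median over all members was 0.0648 at a floor of 6.0, 0.0181 on the brighter array and 0.0232 after repeated quantile normalization, and the mean was 0.0720. The LINC median was 0.14 at a floor of 5.0, 0.35 at 6.0 and 0.0295 after repeated quantile normalization. The antisense median was 0.0143 at a floor of 5.0, 0.0106 on the brighter array and 0.0200 after repeated quantile normalization. The cause of these shifts was not tested. For the 24 members with the largest differences, 48 values under loess correction and repeated quantile normalization gave 0 changes of sign or of side at 1.5-fold. LINC00659 left the set at a mean of 4.49 under repeated quantile normalization. These members were chosen for size, the smallest of the 24 differences being -0.39, so the lack of sign changes shows little. The mean of probe sets could change 5 of the 24, of which LINC00999, LINC01061, LINC01347 and PDCD4-AS1 moved by more than 0.193. The share of pairs with the same direction ranged from 42.0% to 47.1%. No paired analysis was possible because each group holds 1 array. Signal near background limits what dim genes can show.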

Other observations

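Below the level floor, 31 LINC or antisense genes read 4.5 or more on 1 of the arrays. Of these, 4 were higher by 1.5-fold in compressed cells: GABPB1-AS1 (4.88 in compressed and 4.02 in uncompressed cells), NUTM2A-AS1 (4.66 and 3.84), RPH3AL-AS1 (4.70 and 4.03) and LINC00525 (4.57 and 3.96). Another 6 were lower, among them ADD3-AS1 (4.07 in compressed and 4.92 in uncompressed cells), MYT1L-AS1 (3.87 and 4.53) and LINC01101 (3.96 and 4.70). Each lay below the floor on 1 array, so no fold is given. These genes were picked by reading 4.5 or more on their brighter array, so a gap between the arrays is partly built in. The share of other genes under this filter was not computed, so these counts are not a result about LINC or antisense genes.

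Other transcripts classed as lncRNA and higher in compressed cells, chosen after their values were seen, were LOC100190986 (8.53 in compressed and 7.17 in uncompressed cells, 2.57-fold), FLJ42627 (6.28 and 4.95, 2.52-fold) and MIR4435-2HG (9.19 and 8.41, 1.72-fold).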
